A study of Rattus norvegicus with 2 samples.

Results

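Ion channels and neurotransmitter-gated receptors were described in cultured rat neural precursor cells. These genes were chosen by gene symbol, with earlier results of these data known. Members were the rat genes, named through the RefSeq accession of each probe, whose symbol begins with Kcn, Cacn, Hcn, Gabr, Chrn, Clcn or Glra, or with Scn, Gria, Grik, Grin, Grid or Grm and a digit. Of 216 such genes in the RefSeq table, 208 were on the array, among 15436 named genes in all. They were sorted into 21 families, and 116 members had a probe well above background on at least 1 array.

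Primary cells from the cortex of SD rat embryos at day 14 were expanded in N2 medium with 10 ng/mL bFGF, a factor that keeps precursors dividing. All received 4 µg of plasmid by transient nucleofection, either MSCV-IRES-EGFP (empty vector) or the same plasmid with rat Bcl-2, an inhibitor of apoptosis. The withdrawal array set empty vector without bFGF (Cy5, red) against empty vector with bFGF (Cy3, green), which asks what neuronal differentiation changes. The array labelled Bcl-2 set rBcl-2 with bFGF (red) against empty vector with bFGF (green), and addresses the effect of Bcl-2 under growth conditions. Cells without bFGF also spent 2 days in another medium (NB), so loss of bFGF and change of medium cannot be told apart. The labels do not give the number of embryos or the share of transfected cells. Each comparison had 1 array, so differences lack a replicate check and none was tested.

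Which way the ratios run is unsettled. Across 42877 gene spots the log2 ratios of the arrays had a correlation of r = -0.67, although both green channels are labelled as the same control. For the 78 members with signal above background in each of the 4 channels, green and green differed by values whose SD was 0.43 (log2). That SD was 0.21 between green of the array labelled Bcl-2 and red of the withdrawal array, and 0.18 between the remaining pair. Ratios below give red against green, following the labels. With the sign of an array turned, every "higher" on it becomes "lower", and every log2 ratio changes sign.

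Channels that open with voltage or bind a transmitter turn gradients of potassium, sodium, calcium and chloride into electrical signals. Potassium channels set the resting potential and repolarise the cell, sodium channels start the action potential, and calcium channels couple it to release and to gene regulation. GABA-A and glycine receptors conduct chloride, and nicotinic and ionotropic glutamate receptors conduct cations. Dividing neural precursors already carry some of them, and the full set appears as neurons mature.

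Promoters are shown for members at the ends of the range on the withdrawal array, so that genes high together can be read beside the lowest. They are the GABA-A subunit genes Gabrg1 and Gabrb1 and the nicotinic subunit gene Chrna4, all higher in red, and Kcna2. This voltage-gated potassium channel gene had the lowest ratio in the main setting (background offset of 50, then loess). Gria3 and Scn3b are named only. Each window runs from 250 bases before to 50 bases after the gene start in RefSeq, build GRCr8, printed 5′ to 3′ on the strand of the gene. The windows are chr14:37750042-37750341 (plus strand) for Gabrg1, chr14:36902844-36903143 (minus) for Gabrb1, chr3:188534477-188534776 (minus) for Chrna4 and chr2:197393280-197393579 (plus) for Kcna2. Capitals mark exact matches, on either strand, to the GC box, spelled GGGCGG, or to the CCAAT box, spelled by its name.
Gabrg1: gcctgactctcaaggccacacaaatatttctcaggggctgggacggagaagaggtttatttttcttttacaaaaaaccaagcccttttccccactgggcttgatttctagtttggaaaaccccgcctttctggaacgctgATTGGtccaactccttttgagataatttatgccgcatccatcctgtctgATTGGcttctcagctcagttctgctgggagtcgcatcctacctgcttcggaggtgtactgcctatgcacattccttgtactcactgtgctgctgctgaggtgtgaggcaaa
Gabrb1: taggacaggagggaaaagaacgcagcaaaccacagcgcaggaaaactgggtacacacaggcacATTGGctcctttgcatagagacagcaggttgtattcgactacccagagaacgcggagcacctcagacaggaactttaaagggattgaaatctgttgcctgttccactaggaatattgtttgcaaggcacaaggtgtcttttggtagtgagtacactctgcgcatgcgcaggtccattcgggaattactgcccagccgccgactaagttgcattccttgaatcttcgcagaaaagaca
Chrna4: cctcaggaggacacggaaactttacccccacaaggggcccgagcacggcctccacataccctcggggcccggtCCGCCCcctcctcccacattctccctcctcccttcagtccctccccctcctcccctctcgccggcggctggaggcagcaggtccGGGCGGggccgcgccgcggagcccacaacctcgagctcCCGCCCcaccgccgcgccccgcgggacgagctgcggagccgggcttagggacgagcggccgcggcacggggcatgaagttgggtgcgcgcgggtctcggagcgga
Kcna2: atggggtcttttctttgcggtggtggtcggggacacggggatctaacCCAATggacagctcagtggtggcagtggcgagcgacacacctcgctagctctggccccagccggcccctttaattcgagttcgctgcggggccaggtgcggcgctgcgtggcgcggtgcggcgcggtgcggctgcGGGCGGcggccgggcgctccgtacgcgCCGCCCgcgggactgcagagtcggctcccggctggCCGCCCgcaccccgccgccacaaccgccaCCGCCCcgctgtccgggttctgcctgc

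The Gabrg1 window held 2 CCAAT boxes and the Gabrb1 window 1, both with no GC box. Chrna4 held 3 GC boxes and Kcna2 held 4, with 1 CCAAT box in Kcna2. GC content was 48.7% for Gabrg1, 49.3% for Gabrb1, 74.7% for Chrna4 and 73.3% for Kcna2. Of 27457 promoter windows, 34.9% held a GC box and 37.7% a CCAAT box, against 47.9% and 24.3% of the 140 member windows. The E-box CAGCTG, searched on both strands, was in none of the 4 printed windows, in 26.4% of member windows and in 15.1% of all windows. The CRE, spelled TGACGTCA, was in none of the 4, in 0.714% of member windows and in 1.91% of all. The TATA box, spelled TATAAA, was in none of the 4, in 7.14% of member windows and in 14.3% of all. A match is a string of letters, and no binding was measured here.

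Fewer channel and receptor genes were detected than genes in general. A probe well above background in at least 1 channel was found for 115 of 208 members (55.3%) on the withdrawal array, against 70.3% of all named genes. It was found on the Bcl-2 array for 98 members (47.1%), against 66.3%. In all, 97 members were detected on both arrays and 92 on neither. On the withdrawal array, 27 detected members were above background in red alone (23.5%, against 9.20% of all detected genes). There, 3 were above it in green alone (2.61%, against 0.54%). On the other array, 5 were above background in red alone (5.10%, against 2.90%) and 10 in green alone (10.2%, against 3.95%). Members thus had the larger share in each channel of both arrays. Net signal over all gene spots had medians of 189 (green) and 284.5 (red) on the withdrawal array and 201 and 266 on the other.

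Detection differed between families. All 4 AMPA receptor genes, Gria1 to Gria4, were detected on both arrays. Of 9 genes for the pore subunit of voltage-gated calcium channels, 8 were detected on the withdrawal array, the retinal gene Cacna1f being the exception. Two-pore potassium channels, which carry the leak current, had 9 of 13 detected, and CLCN chloride channels and transporters 7 of 9. Lower shares were found for alpha2delta calcium channel subunits with 1 of 4, GABA-A subunits with 7 of 19, nicotinic subunits with 6 of 16, kainate receptors with 2 of 5, NMDA receptors with 3 of 7 and inward rectifiers with 7 of 15. Not detected on either array were the obligatory NMDA subunit gene Grin1 with Grin2a and Grin2b, the sodium channel genes Scn3a and Scn9a, the pacemaker channel gene Hcn2 and the GABA-A genes Gabra3, Gabra5 and Gabra6. "Not detected" means a signal not well above background for these probes.

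**Figure D1:**
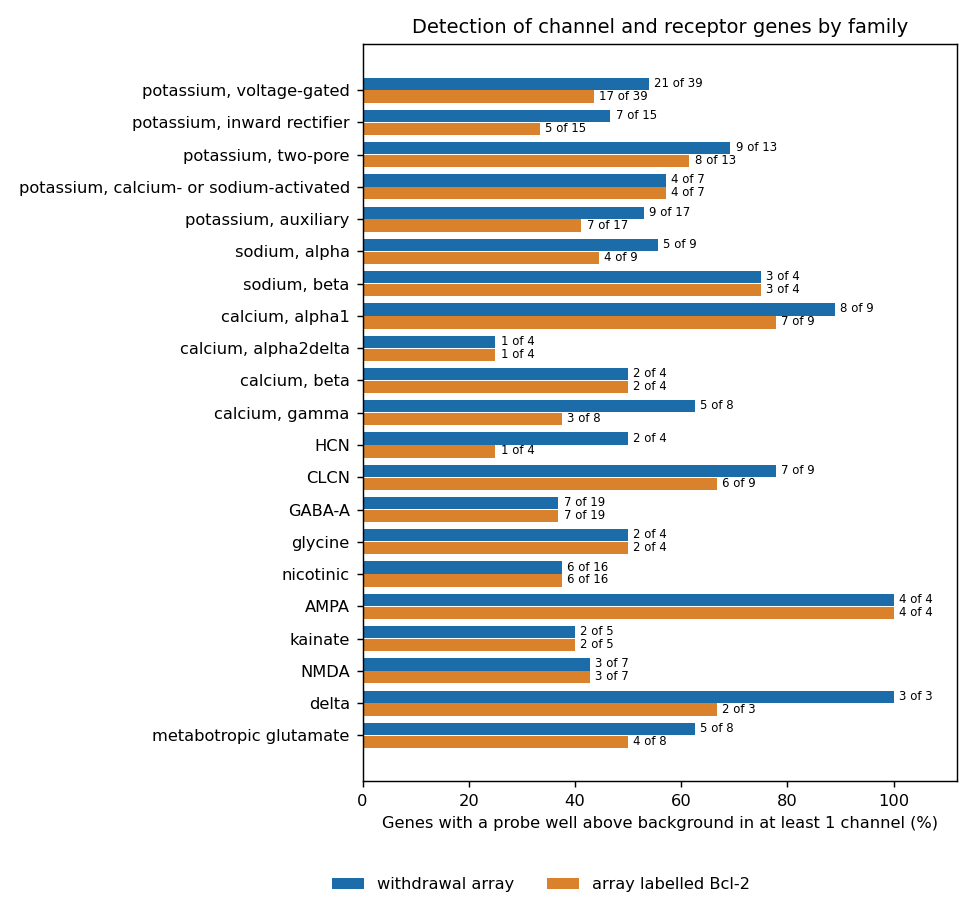
Share of the genes of each family on the array (horizontal axis, percent) that had a probe well above background in at least 1 channel, for both arrays, with the counts beside the bars. AMPA receptors reached 4 of 4 on both arrays, while GABA-A subunits reached 7 of 19 on both.

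Red over green differed by at least 2-fold for 5 of 115 detected members on the withdrawal array, all higher in red: Gabrg1, Scn3b, Gabrb1, Gria3 and Chrna4. Over all genes, 2.42% were at least 2-fold higher (2.89% in either direction), and 4.35% of the members. None was at least 2-fold lower, where 0.47% of all genes were. A gene was counted if its absolute log2 ratio reached 1 and all its probes had 1 sign. The array labelled Bcl-2 had 2 of 98 detected members at least 2-fold lower in red, Gabrg1 and Scn3b (2.04% of the members, and 2% of all genes). None was at least 2-fold higher there, where 0.557% of all genes were (2.56% in either direction). With both channels required above background, 3 members were higher on the withdrawal array (Gabrg1, Gria3 and Scn3b; 2.42% of all genes, and 0.531% lower, 2.95% in either direction). The same requirement left 2 lower on the other (2.2% of all genes, and 0.441% higher, 2.64% in either direction). With the sign turned, the 5 would be lower and the 2 higher. Among genes above background in both channels of the withdrawal array, Gria3 at 1.25 was nearest above the limit and the chloride transporter gene Clcn4 at 0.92 nearest below it. Gabrb1 and Chrna4 were above background in red alone there, so their ratios are only bounded.

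**Figure D2:**
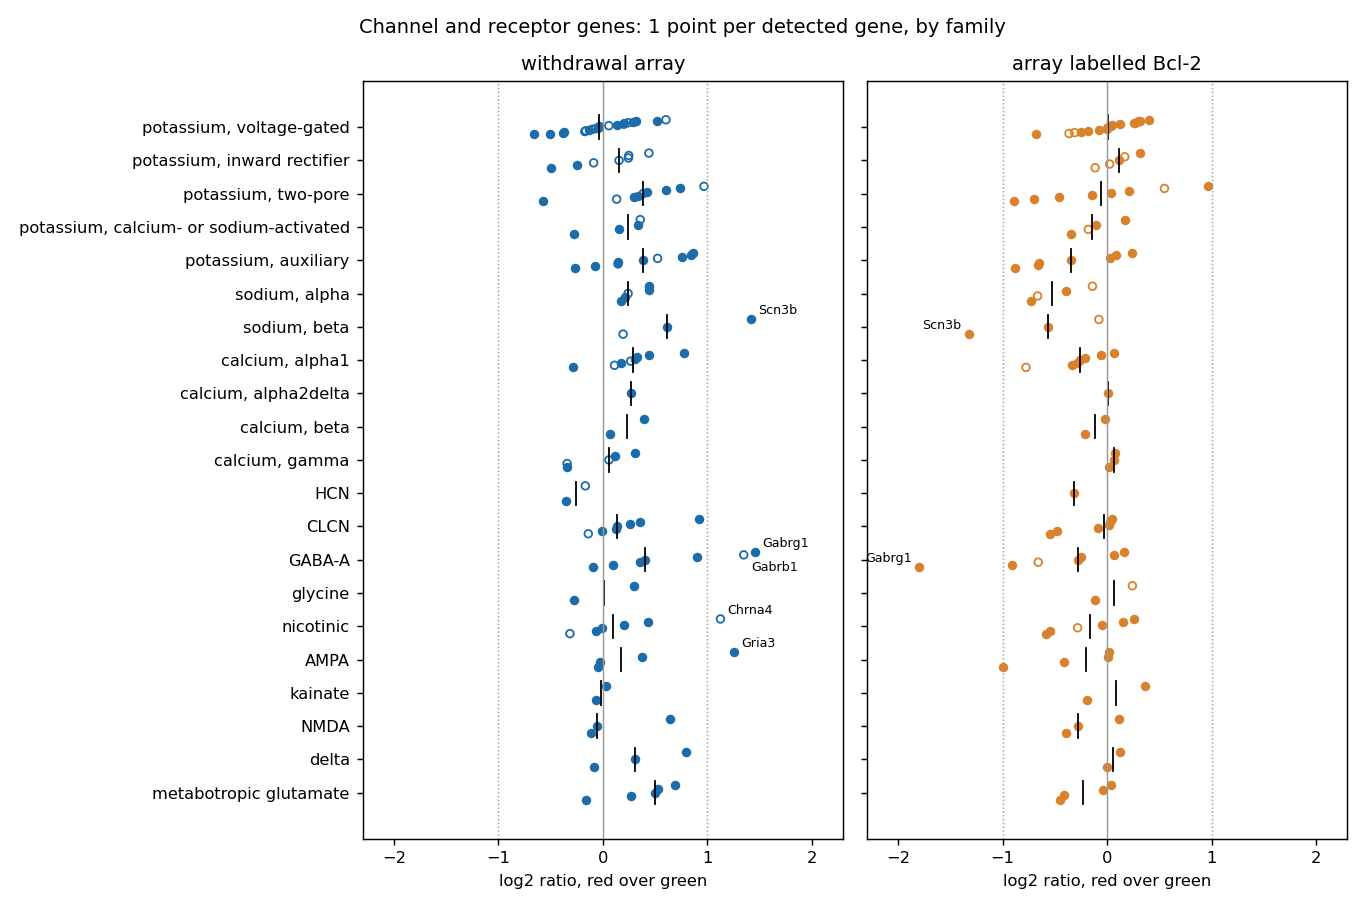
Log2 ratio of red over green (horizontal axis) for each detected gene, by family, on the withdrawal array (left) and the array labelled Bcl-2 (right). Filled points were above background in both channels, open points in 1 channel (no exact ratio), black lines are family medians and dotted lines mark 2-fold. Of the named genes, Gabrg1, Scn3b and Gria3 lie from 1.25 to 1.45 on the left, and Scn3b and Gabrg1 at -1.32 and -1.80 on the right.

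The median log2 ratio of the 115 members was 0.20 on the withdrawal array, where 77 lay above 0 and 38 below, and the median of all 10847 detected genes was 0.03. Above 0 were 67.0% of the members and 54.2% of all genes. The Bcl-2 array gave -0.08, with 40 above and 58 below (40.8% above), against -0.01 for 10236 genes (48.3% above). With the sign turned these medians are -0.20 and 0.08. A member could enter through the channel in which it was bright, so these medians describe the detected genes alone. Without that filter, the medians over all 208 members were 0.10 and -0.01, and 0.01 and -0.02 over 15436 genes. Members were dimmer than genes in general, with a median of 7.32 for the mean log2 signal of both channels on the withdrawal array, against 9.19. The offset of 50 added in the background correction draws the ratio of dim genes towards 0. With median centring in place of loess, the detected members of the withdrawal array had a median of 0.20, and all genes 0.17. Above 0 were then 61.7% of members and 68.0% of all genes, so the larger member share did not hold. The other array then had medians of -0.14 and -0.07, with 21.4% and 38.6% above 0.

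In the main setting GABA-A receptors, the pentameric chloride channels that GABA opens, held the member furthest from 0 on both arrays. With the Feature Extraction ratio that member was Kcnk15, at 3.11 and 2.88, above background in red alone on both. Gabrg1, for the gamma 1 subunit, read 8.77 in green and 10.22 in red (log2 signal) of the withdrawal array, a log2 ratio of 1.45. The Bcl-2 array had 10.43 in green and 8.62 in red, a ratio of -1.80. The green channels, labelled as 1 control, thus differed for this probe by 1.66, more than red and green did on the withdrawal array. Gabra4 (alpha 4) read 7.35 in green and 8.25 in red, then 8.22 in green and 7.31 in red, giving ratios of 0.90 and -0.91. Gabrb1 (beta 1) was not well above background in green of the withdrawal array and its red signal exceeded green by at least 2.55-fold. On the other array it was not well above background in red and at least 1.58-fold higher in green. In such bounds the bright signal is divided by the dim one, or by the detection floor of that channel where the floor is higher, and they are open to dye bias. Gabra2 (alpha 2) was at 0.36 and -0.25. In the main setting Gabrq (theta) at 0.09 and 0.16 and Gabrd (delta) at -0.10 and 0.07 lay nearest 0. The Feature Extraction ratio put Gabrd at -0.03 and 1.29, past 2-fold on the array labelled Bcl-2. It was above background in both channels of both arrays.

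Some of the GABA-A subunit genes lie in a cluster. In the RefSeq order of chromosome 14, Gabrb1, Gabra4, Gabra2 and Gabrg1 follow each other with 1 other protein-coding gene among them, and all 4 were detected and above 0 on the withdrawal array under every scaling tried. Of Gabre, Gabra3 and Gabrq on chromosome X, only Gabrq was detected. Glycine receptors, the other inhibitory chloride channels, had 2 of 4 detected. Glra2, the alpha 2 subunit common before birth, had log2 signals from 13.37 to 13.67 in the 4 channels, with ratios of 0.30 and -0.12. Glra1 was at -0.27, then brighter in red by at least 1.18-fold, its green signal not being well above background.

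Sodium channels lay above 0 for 8 of 8 detected genes on the withdrawal array, for 7 of 8 with the Feature Extraction ratio (Scn2a at -0.01) and for 6 of 8 with median centring. The 6 above background in both channels had a median of 0.44. Below 0 on the Bcl-2 array under every scaling tried, the 7 detected included 4 above background in both channels, with a median of -0.65. The medians with the sign turned are -0.44 and 0.65. Scn3b, for the beta 3 auxiliary subunit, read 9.28 in green and 10.70 in red (log2 signal) of the withdrawal array, a ratio of 1.42 (2.67-fold). It had 10.65 in green and 9.32 in red on the other, a ratio of -1.32 (2.50-fold). So the red signal of the first array and the green signal of the second lay together, and the remaining pair lay together below them. Scn4b (beta 4) was at 0.61 and -0.57, with an SD of 0.12 over 10 spots of its probe on the first array and 0.06 over 9 spots on the second. Among pore subunits Scn8a was at 0.21 and -0.40. Scn1a was at 0.45 and Scn2a at 0.18 on the withdrawal array. With red of the second array not well above background, green was brighter there by at least 1.59-fold and at least 1.103-fold. Scn11a was detected in red of the withdrawal array alone.

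**Figure D3:**
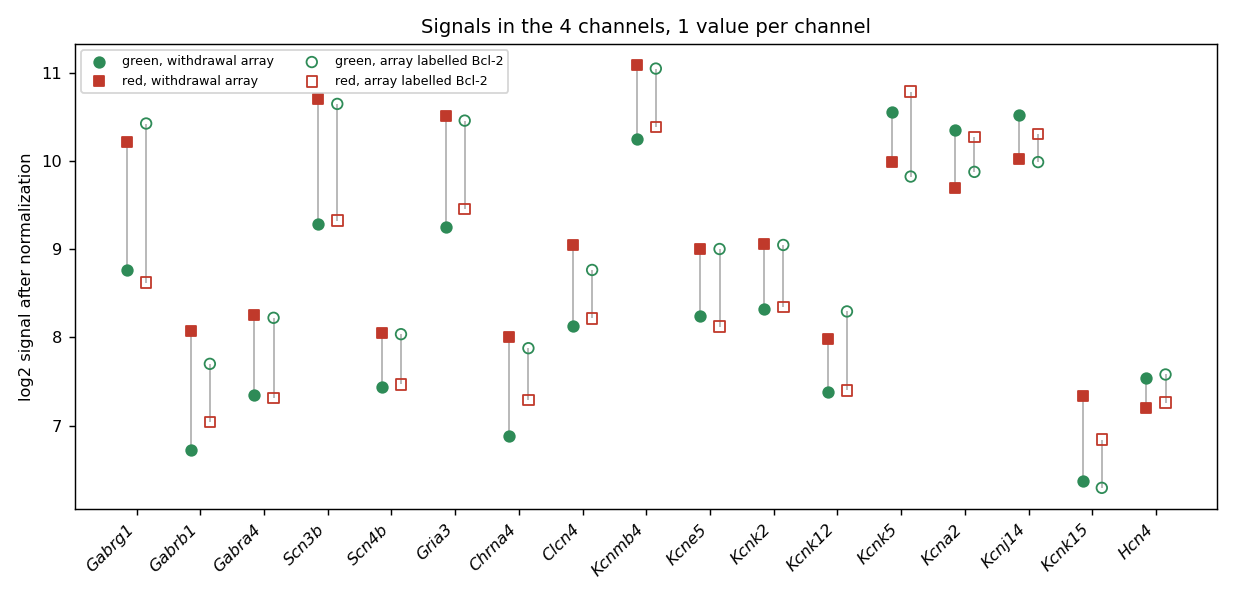
Log2 signal after normalization (vertical axis) of 17 genes in each of the 4 channels, with circles for green, squares for red, filled symbols for the withdrawal array and open symbols for the array labelled Bcl-2. For Scn3b the filled square (10.70) lies beside the open circle (10.65), and the filled circle (9.28) beside the open square (9.32).

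AMPA receptors, which carry fast excitatory transmission, differed among themselves. Gria3 read 9.26 in green and 10.51 in red (log2 signal) of the withdrawal array, and its 2 probes had ratios of 1.08 and 1.43, with a median of 1.25. The Bcl-2 array had 10.46 in green and 9.46 in red, and its probes had ratios of -1.09 and -0.91, with the median just short of the 2-fold limit. Gria1 was at 0.38 and -0.42, with SDs of 0.16 over 9 spots and 0.13 over 8 spots. Gria2, whose subunit lowers calcium permeability, was at -0.04 and 0.01, and Gria4 at -0.03 and 0.01. The 2 probes of Gria2 disagreed in sign on both arrays.

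Other glutamate receptors lay nearer 0. The NMDA subunit gene Grin2d, typical of immature brain, had log2 signals of 14.24 and 14.18 on the withdrawal array and 14.45 and 14.06 on the other, with ratios of -0.06 and -0.39. Grin2c was at 0.64 and -0.28, and Grin3a, a subunit that lowers calcium flux, at -0.11 and 0.11. Of the kainate receptors, Grik5 was at 0.03 and -0.19 and Grik2 at -0.07 and 0.36. The delta receptor gene Grid1 was at 0.31 and -0.00. Metabotropic receptors, which signal through G proteins, had a median of 0.50 over 5 detected genes on the withdrawal array and -0.23 over 4 on the other. Grm4 was at 0.69 and -0.04, Grm5 at 0.53 and -0.45 and Grm2 at 0.27 and 0.04. Grm3 was at -0.16 on the withdrawal array alone.

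Nicotinic receptors, opened by acetylcholine, had 6 detected genes on each array and medians of 0.10 and -0.16. Chrna4, of the main heteromeric brain receptor, was not well above background in green of the withdrawal array and its red signal exceeded green by at least 2.18-fold. The Bcl-2 array read 7.88 in green and 7.29 in red, a ratio of -0.59. Its partner gene Chrnb2 was not detected. Chrnb1 and Chrna1, known from muscle, were at 0.44 and -0.55 and at -0.07 and -0.04. Chrna7, of the homomeric receptor, was at 0.20 and 0.15, and Chrnb4 at -0.01 and 0.26. Chrna5, above background in green alone, was at least 1.24-fold higher in green of the withdrawal array and not detected on the other. Chrna3 was detected on the array labelled Bcl-2 alone, at least 1.22-fold higher in green.

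Potassium channels made up 91 of the 208 members, 50 of them detected on the withdrawal array with a median of 0.15 and 41 on the other with a median of 0.01. In the main setting no potassium channel gene reached 2-fold on either array. With an offset of 10, Kcne2, Kcnip1, Kcnk15 and Kcnq3 were at least 2-fold higher on the withdrawal array, and Kcnk12 lower on the other. Of those on the withdrawal array, only Kcne2 was above background in both channels. More passed with the Feature Extraction ratio, in both directions on each array. Voltage-gated channels were spread around 0 on the withdrawal array, with 9 of 21 above it and 12 below. Kcna2 was lowest of all members there in the main setting, with log2 signals of 10.36 (green) and 9.70 (red) and a ratio of -0.66. It was at 0.40 on the other array. Kcnh4 was at -0.51 and 0.12, and Kcna3 at -0.39 and 0.32. In the other direction, Kcnq3, an M-channel subunit, was brighter in red by at least 1.52-fold on the withdrawal array and brighter in green by at least 1.29-fold on the other. Kcnd1 was at 0.31 and -0.18, and Kcnd2, of the transient A current, at 0.13 and 0.27, with SDs of 0.08 and 0.07 over 10 spots of 1 of its probes.

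Two-pore channels had 8 of 9 detected genes above 0 on the withdrawal array (6 of 9 with median centring), with a median of 0.39, and a median of -0.06 over 8 genes on the other. Of the 9, 3 passed background in red alone, and the 6 above it in both channels had a median of 0.38. On the other array 1 passed in red alone, and the 7 in both channels had a median of -0.15. The pH-sensitive channel gene Kcnk5 stood opposite, with 10.56 in green and 9.98 in red (-0.58), then 9.82 in green and 10.79 in red (0.96). That 0.96 was the highest ratio of a member on the array labelled Bcl-2 in the main setting. The mechanosensitive TREK-1 gene Kcnk2 was at 0.74 and -0.70, and its relative Kcnk10 at 0.30 and -0.46. The probes of Kcnk2 above background differed in size, at 1.19 and 0.30, then at -1.07 and -0.34. Kcnk12 was at 0.61 and -0.90, and the TASK-1 gene Kcnk3 at 0.33 and -0.15. Kcnk15 passed background only in the red channels, by at least 1.65-fold over green and then 1.19-fold. Kcnk6 was also above 0 on both arrays, at 0.42 and 0.21.

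Inward rectifiers, which hold the membrane near the potassium potential, were mostly dim: 5 of 7 detected genes on the withdrawal array were above background in red alone. Kcnj14 was an exception, at 10.52 in green and 10.03 in red (-0.50), then 9.99 in green and 10.31 in red (0.32). Kcnj16 had red over green of at least 1.36-fold, then a log2 ratio of 0.11. Kcnj10, the main glial Kir4.1 channel, was not well above background in green of either array, with log2 signals from 6.86 to 6.96 in the 4 channels. Of the channels opened by calcium or sodium, the BK channel gene Kcnma1 was at 0.34 and -0.11, the SK channel gene Kcnn3 at 0.15 and -0.34 and the sodium-activated Kcnt1 at -0.28 and 0.17. The SK channel gene Kcnn2 was at least 1.28-fold higher in red and then at least 1.13-fold higher in green.

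Auxiliary subunits, which tune gating and trafficking, had a median of 0.39 over 9 genes and -0.35 over 7. The BK beta subunit gene Kcnmb4, enriched in neurons, read 10.25 in green and 11.09 in red, then 11.05 in green and 10.39 in red, giving 0.84 and -0.66. Kcne5 was at 0.76 and -0.88, and both of its probes lay on the same side of 0 on each array. Kcne2 was at 0.87 and -0.35, and Kcnab1 at 0.39 and -0.65. The 0.39 was the median of 2 Kcnab1 probes, at 0.08 (above background in red alone) and 0.70. Only the probe at 0.70 passed background on the other array, where it read -0.65. Kcnab3 was opposite, at -0.27 and 0.23. Kcnip1, a calcium sensor that binds A-type channels, was at least 1.22-fold higher in red of the withdrawal array and not detected on the other.

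Calcium channel pore subunits had 7 of 8 detected genes above 0 on the withdrawal array (6 of 8 with median centring, median 0.29). The other array had 1 of 7 above 0 (2 of 7 with the Feature Extraction ratio and 0 of 7 with median centring, median -0.26). Of the 8, 2 passed background in red alone, and the 6 above it in both channels had a median of 0.32. Of the 7, 1 passed in green alone, and the 6 in both channels had a median of -0.24. Cacna1s, of skeletal muscle, was at 0.78 on the first array, and on the second it was not well above background in red and at least 1.71-fold higher in green. The L-type gene Cacna1c was at 0.44 and -0.29, with SDs of 0.09 over 9 and 8 spots, and the N-type gene Cacna1b at 0.31 and -0.34, with SDs of 0.09 over 10 spots and 0.05 over 9. The P/Q-type gene Cacna1a was at 0.33 and 0.07. The T-type genes were Cacna1h at -0.28 and -0.26, Cacna1i at 0.17 and -0.06 and Cacna1g, at least 1.08-fold higher in red and then at -0.22. Cacna1e was detected in red of the withdrawal array alone. Among auxiliary subunits Cacnb1 was at 0.39 and -0.21, Cacnb3 at 0.07 and -0.02 and Cacna2d1 at 0.27 and 0.01. The gamma family, which includes AMPA receptor escorts, had Cacng7 at 0.31 and 0.08, Cacng4 at 0.11 and 0.02 and Cacng8 at -0.34 and 0.07.

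Of the CLCN genes, Clcn4, an endosomal exchanger, read 8.13 in green and 9.05 in red, then 8.77 in green and 8.22 in red, giving 0.92 and -0.55. Clcn3 was at 0.26 and -0.48, the plasma membrane channel gene Clcn2 at 0.36 and 0.02, Clcn5 at 0.14 and 0.03, the lysosomal Clcn7 at 0.12 and 0.05 and Clcn6 at -0.01 and -0.09. The pacemaker channel gene Hcn4 was below 0 on both arrays, at -0.35 and -0.32. Its green signals were 7.55 and 7.58 and its red signals 7.20 and 7.26.

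The setting of the background correction matters for dim members. With the ratio of Feature Extraction, which adds no offset, 26 members were at least 2-fold higher and 4 lower on the withdrawal array (8.18% and 2.18% of all genes, 10.4% in either direction). The Bcl-2 array had 6 higher and 19 lower (3.5% and 6.74% of all genes, 10.2% in either direction). Brighter leading genes moved little: Scn3b was at 1.45 and -1.42, Gria3 at 1.29 and -1.08 and Gabrg1 at 1.56 and -2.12. Dimmer genes above background in both channels moved more, with Gabra4 at 1.68 and -1.76, Kcnk12 at 1.45 and -1.54 and Scn4b at 1.01 and -1.03. Of the 26 and 4 on the withdrawal array, 12 and 3 were above background in 1 channel alone, as were 3 of 6 and 8 of 19 on the other, and their ratios are not exact. Kcna3 passed the limit on the lower side, at -1.29, and Kcnk5 on the higher side of the other array, at 1.15.

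**Figure D4:**
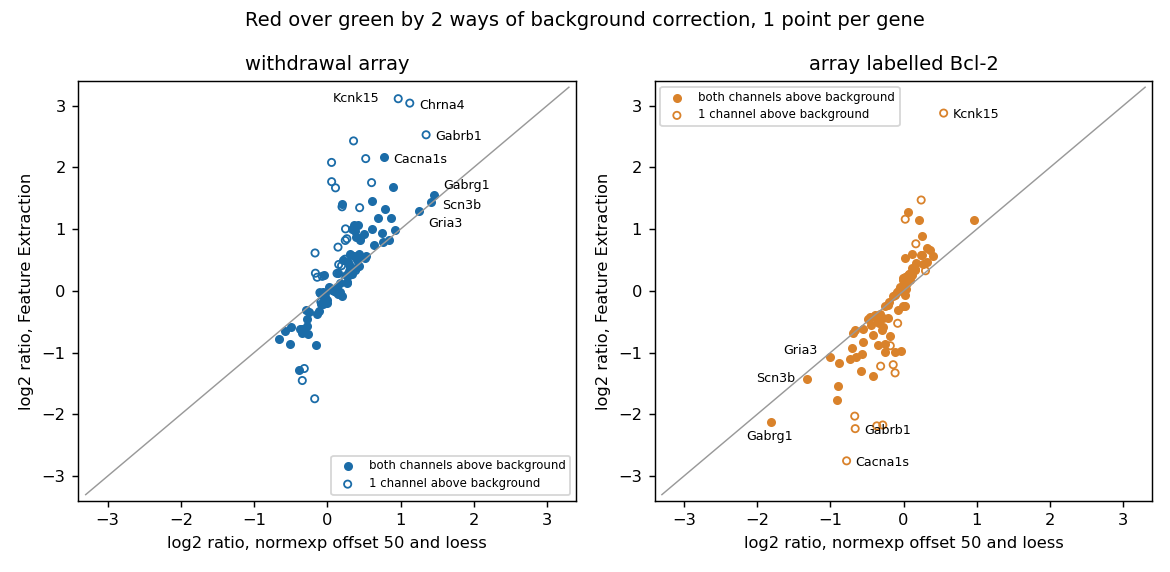
Log2 ratio of red over green per detected gene with offset 50 and loess (horizontal axis) against the ratio of Feature Extraction (vertical axis), on each array, with the diagonal as a line. Filled points were above background in both channels and open points in 1 (no exact ratio); on the withdrawal array Scn3b lies near the diagonal at 1.42 and 1.45, and Cacna1s above it at 0.78 and 2.17.

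Genes that work with these channels were described in the same way. Of 41 anchoring and assembly genes on the array, 38 were detected on the withdrawal array, with a median of 0.11 and 0 at least 2-fold. There were 33 detected on the Bcl-2 array, with a median of -0.05. The presynaptic adhesion gene Nrxn2 was at 0.70 and -0.68, and the AMPA receptor scaffold gene Grip1 at 0.63 and -0.56. Of 68 channel genes outside the prefix rule (TRP, P2X, ASIC, connexin and others), 39 and 34 were detected, with medians of 0.17 and -0.12 and 0 at least 2-fold on either array. Trpv4 was at 0.73 and -0.43, and the serotonin-gated channel gene Htr3a at 0.69 and -0.01. Among metabotropic GABA and acetylcholine receptors, 4 of 7 were detected, with medians of 0.11 and -0.20, and the GABA-B subunit gene Gabbr2 was at 0.64 and -0.41.

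Cell type markers also differed between the channels. The precursor markers Nes, Sox2, Pax6 and Vim were well above background in all channels, while Msi1 passed it in red of the withdrawal array alone. On that array 1 of 9 detected precursor markers was at least 2-fold, Fabp7 at 1.26. The 9 had a median of 0.23, with 6 above 0 and 3 below. On the other array 8 were detected with a median of -0.26, 2 above 0 and 6 below, and 0 were at least 2-fold. Of 9 detected astrocyte markers, all lay above 0 on the withdrawal array (median 0.88, 4 at least 2-fold) and below 0 on the other (median -0.96, 4 at least 2-fold), while Gfap was not detected. The mean log2 signal of these 9 was 9.57 in green and 10.97 in red, then 10.93 in green and 9.70 in red. Of 14 neuronal markers on the array, 10 were detected, with medians of 0.46 and -0.25. Tubb3 and Ncam1 were at least 2-fold higher on the withdrawal array, and Ncam1 was at least 2-fold lower on the other (-1.25). Syt1, Nefl, Slc17a7 and Slc17a6 were not detected on either. The 10 had a mean log2 signal of 8.43 in green and 8.89 in red, then 8.90 in green and 8.53 in red. Fibroblast and meninges markers lay above 0 for 7 of 7 detected on the withdrawal array and below 0 for 6 of 6 on the other. At least 2-fold were 2 of them on the first, Tagln at 3.23 and Acta2 at 2.19, and 5 on the second, Tagln at -3.02, Acta2, Col1a1, Col1a2 and Col3a1. Their mean signal over 6 genes was 9.09 in green and 10.30 in red, then 10.21 in green and 8.71 in red. Oligodendrocyte lineage markers had medians of 0.12 and -0.10, microglia and blood markers -0.17 and 0.17 (Hba-a1 at 1.04 on the second array) and endothelium and pericyte markers 0.20 and -0.05. The part of other cell types in the channel values was not tested. Fewer cells of a type and less RNA per cell cannot be told apart in such bulk samples.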

How the data were processed

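Total RNA was measured on 2 two-colour Agilent arrays of 1 slide. Per the file headers, the deposited scanner files give median spot and background intensity, a log10 ratio with dye normalization by Feature Extraction, and other flags for outliers and background. The headers name Feature Extraction 11.5.1.1, protocol GE2_1105_Oct12, design 028282 and build rn4, and the submitters' processing notes name 8.5.1.1. The deposited value table has 2 columns of a linear ratio (medians 0.932 and 0.944), and how the authors scaled, centred or oriented it is not given in the sources used here. Against processed signals of 28395 probes printed once, within 0.05 (log2) after a constant, its first column equalled the withdrawal ratio for 100% of probes. The second equalled the product of both ratios for 100% and the ratio of its own array for 7.06%. The first column and the quotient of the columns served as an alternative.

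Intensities were corrected by normexp (offset 50) and normalized by loess with controls at weight 0 (limma 3.58.1, R 4.3.3; Python 3.11.15, pandas 2.3.3, numpy 2.4.6). Outlier spots (534 and 576) were left out, and 0 spots were saturated. Channel signals were scaled by Aquantile. Accessions without version were matched to the RefSeq table of GRCr8, used for names and gene order, which named 60.4% of probes. A gene is the median over its probes well above background in at least 1 channel. Most members rest on 1 probe. Over probes printed repeatedly, the median SD between spots was 0.04 on both arrays, which covers spot noise alone. The number of arrays, 1 per comparison with 0 dye swaps, limits the precision.

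Members and lists were chosen with earlier results of these data known. Genes were named by a rule: those at least 2-fold on either array, the 3 highest, 3 lowest and 2 brightest of each family, and those above background in 1 channel. From other lists, genes at least 2-fold or up to 3 furthest from 0 were named. Markers were named as a check of the labels, also outside the rule. Members detected on neither array, and a few members near 0, were named after their values were seen. Scripts were tested on simulated data. Results for some members and listed genes are not reported here. The 8 alternatives tried are described in the closing section.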

Additional observations from a re-analysis of the deposited data

Results flagged for a closer look

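As labelled, Gabrg1 and Scn3b passed 2-fold upward on the withdrawal array and downward on the array labelled Bcl-2. This difference was not tested, since each comparison has 1 sample. For Gabrg1 the log2 ratios were 1.45 and -1.80. Scn3b had 1.42 and -1.32. With the sign of 1 array turned, both genes would lie on the same side of 0 on both arrays. Over all gene spots the arrays correlated at r = -0.67 with the loess ratio and at -0.12 with the ratio of Feature Extraction.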

How the results depend on the processing

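With 1 array per comparison, no replicate could be left out. No paired analysis was possible because each group has 1 sample. Counts of members at least 2-fold higher on the withdrawal array (5) became 14 with an offset of 10 (12.2% of members, 4.10% of all genes), 26 with the Feature Extraction ratio (22.6%, 8.18%), 8 with median centring (6.96%, 4.36%), 28 with the value table (24.6%, 9.001%) and 3 with both channels above background (3.53%, 2.42%). Lower members (0) became 4 with the Feature Extraction ratio (3.48%, 2.18%) and 4 with the value table (3.51%, 1.71%). On the array labelled Bcl-2, lower members (2) became 5 with an offset of 10 (5.10%, 2.65%), 19 with the Feature Extraction ratio (19.4%, 6.74%), 6 with median centring (6.12%, 2.65%) and 21 with the value table (21.4%, 7.32%). Higher members (0) became 6 with the Feature Extraction ratio (6.12%, 3.5%) and 6 with the value table (6.12%, 3.03%). The member median on the withdrawal array (0.20) was 0.29 with an offset of 10, 0.32 with the Feature Extraction ratio, 0.39 with the value table and 0.10 without the filter. On the other array (-0.08) it was -0.23 with the Feature Extraction ratio, -0.14 with median centring, -0.30 with the value table and -0.0105 without the filter. Detected shares were 40.9% and 39.4% when both channels had to be above background. Of 15 families with at least 3 detected members on the array labelled Bcl-2, 3 had a median above 0, and 1 with median centring. Without the filter 6 of these 15 did, and 7 of all 21 families, since more genes enter. Median centring moved the median of all genes to 0.17 (withdrawal) and -0.07 (Bcl-2), and left the member median on the withdrawal array at 0.20. For named genes it changed the sign of 37 of 183 values, and the Feature Extraction ratio of 15, none of them a gene at least 2-fold in the main setting. Keeping outlier spots changed 0 signs. The causes were not tested, except that fewer or more genes enter under the filters.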
